A study of Homo sapiens with 2 samples.

Results

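The 9 genes described here are histone genes, chosen by symbol from the 36601 genes listed: the cluster genes HIST1H4C, HIST1H1C, HIST1H1E, HIST1H2BK, HIST1H2AC and HIST2H2BE, and the genes of replacement or variant histones H2AFZ, H2AFX and H1FX. They were measured in 2 single-cell RNA libraries of A549, an established epithelial cell line from a human lung adenocarcinoma. Cells in 2D culture gave the control library. The squashed library is of cells confined with polydimethylsiloxane (PDMS) micropillars. In both, live cells were sorted after 48 h of recovery for having lost a chromosome reporter, which about 1 cell in 500 had, so the control cells carry the same reporter loss as the squashed ones. Each group is 1 library of 1 line. A difference between the libraries therefore has no replicate error, no test was made, and each 95% interval (exact Poisson for a level, exact Clopper-Pearson for a ratio or a share) covers counting error only. The genes were named with earlier results of these libraries known, so their levels in the 2 libraries are given as a description.

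Histones package DNA: H2A, H2B, H3 and H4 form the nucleosome core, and H1 binds the DNA linker between nucleosomes. Most core and linker histones are made from clustered genes during DNA replication, and their mRNAs end in a stem-loop in place of a poly(A) tail. The stem-loop binds SLBP, U7 snRNP guides the cut that forms the end, and the mRNAs are degraded when replication stops. Replacement histones such as H2A.Z (H2AFZ) and H1.10 (H1FX) come from genes outside the clusters with polyadenylated mRNAs and are made through the cell cycle, while H2AFX, which encodes the H2A.X that is phosphorylated at DNA breaks, is known to give both kinds of end. Some cluster genes are also known to give polyadenylated mRNAs, among them HIST1H2AC, HIST1H2BK and HIST2H2BE. The kit primes on poly(A), so a molecule of a cluster gene is counted here only if it was primed at a tail or at an internal run of A. The deposited counts hold no read positions, so the kind of end behind a count was not measured.

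The stem-loops show which of the 9 genes can end in the replication-dependent way. A search of the annotated transcripts (GENCODE 44, GRCh38) for the consensus histone stem-loop found it in 7 of the 9 genes, in 65 of 87 histone genes (74.7%), and in the canonical transcript of 74 of 20046 protein-coding genes (0.369%). Capitals mark the 6-base stem, the 4-base loop and the 6 bases that pair back, written 5′ to 3′ as DNA with up to 5 flanking bases on each side.
HIST1H4C: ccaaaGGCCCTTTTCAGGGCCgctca
HIST1H1C: caaaaGGCTCTTTTCAGAGCCacca
HIST1H1E: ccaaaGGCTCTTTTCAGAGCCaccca
HIST1H2BK: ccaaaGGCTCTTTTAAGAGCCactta
HIST1H2AC: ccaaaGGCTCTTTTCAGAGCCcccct
HIST2H2BE: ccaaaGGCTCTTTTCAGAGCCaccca
H2AFX: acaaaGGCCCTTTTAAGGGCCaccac

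HIST1H4C, HIST1H1C, HIST1H1E and HIST1H2BK had 1 annotated transcript each, which stopped 4 or 5 bases after the stem-loop and held no poly(A) signal near its end. In HIST1H4C, which encodes histone H4, the stem-loop lay at chr6:26104317-26104332 on the plus strand, 57 bases after the stop codon. HIST1H2AC had a transcript ending 6 bases after the stem-loop at chr6:26124669-26124684 and a longer one that ran 1128 bases past it and ended with a poly(A) signal. The single HIST2H2BE transcript ran 1729 bases past its stem-loop at chr1:149886188-149886203, and both H2AFX transcripts ran past theirs at chr11:119094898-119094913, by 1024 and 821 bases. These longer transcripts ended with a poly(A) signal. No stem-loop was found in the transcripts of H2AFZ (chr4:99948086-99950355) or H1FX (chr3:129314771-129316286). Each of the 9 genes had 1 exon in its canonical transcript except H2AFZ, which had 5.

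Counts can be shared between near-identical or overlapping genes. Over the last 300 bases of the canonical transcript, HIST1H2BK had 2 other genes with at least 97% identity over 60 bases, of which 1, H2BC12L, was protein-coding and matched over 252 bases at 99.2%. The other 8 genes had no such match. HIST1H4C overlaps HIST1H2BC on the opposite strand, H1FX and H2AFZ each overlap an antisense or divergent RNA gene, and HIST1H1E and HIST1H2AC overlap a long gene with no symbol. HIST1H2BC itself was counted at 3.78 CPM (UMIs of a gene scaled to 1000000 UMIs of the library) in the control and 7.59 in the squashed library. The counting's strand setting was not given in the sources used here.

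After filtering, 1906 control cells with 27482392 UMIs (a UMI is 1 captured molecule) and 1930 squashed cells with 23328323 UMIs were kept, with medians of 12458 and 9330 UMIs, 2598 and 1790 genes, and 5.77% and 7.10% mitochondrial UMIs per cell. The libraries shared 4 barcodes, 2 of them among kept cells. Levels in CPM are not scaled by length because each molecule is counted once, at its 3′ end. Of 8 epithelial markers, KRT8, KRT18, KRT7 and JUP reached 20 CPM, their list summing to 2915 CPM in the control and 2147 in the squashed library, while EPCAM had 5 and 0 UMIs and CDH1 had 7.86 and 4.12 CPM. The fibroblast list summed to 9.57 and 9.52 CPM, the immune list to 2.07 and 1.41 with 6 of 8 markers at 0, and the endothelial list to 0.0728 and 0.0857 with 3 of 6 at 0. Over the 4307 genes that reached 20 CPM in 1 of the libraries or both, the median log2 ratio of squashed over control was -0.14, and 0.02 after TMM scaling.

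The 89 histone genes counted here took 0.364% of the control UMIs and 0.343% of the squashed UMIs. The 9 genes held 37.4% and 43.1% of these, and HIST1H4C with H2AFZ alone held 89.8% and 88.6% of the 9 genes' UMIs. Of the UMIs of all cluster histone genes, HIST1H4C took 56.3% in the control and 65.7% in the squashed library. Histone mRNA as counted here is thus mostly that of 1 cluster H4 gene, of H2AFZ, and of the H3.3 genes H3F3A (1111 and 922 CPM) and H3F3B (780 and 634 CPM).

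**Figure D1:**
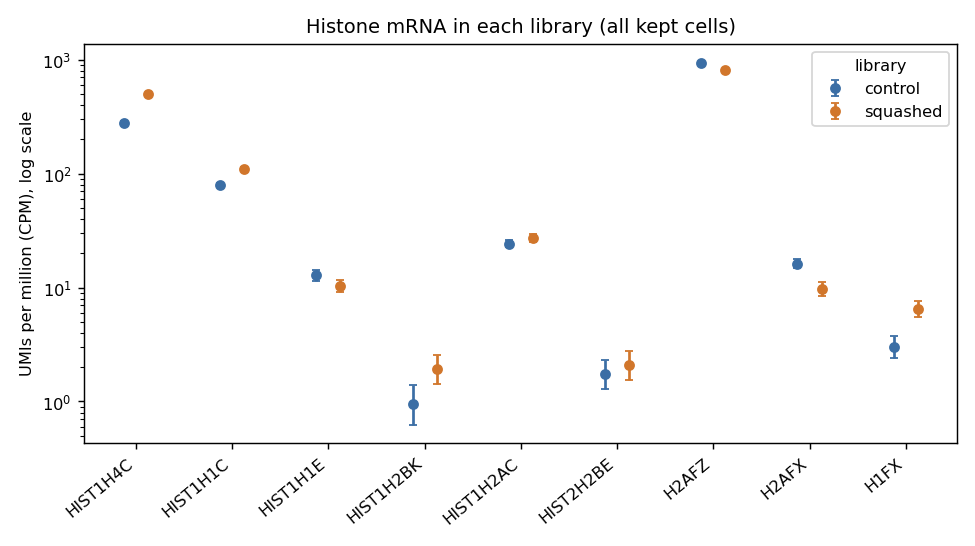
Level of each of the 9 histone genes in the control and squashed library, in CPM on a log scale, with 95% Poisson intervals (hidden by the point where narrow). HIST1H4C lies at 281 and 505 CPM, H2AFZ at 940 and 805, and HIST1H2BK and HIST2H2BE at or under 2.10.

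The question put to the libraries was which transcripts differ after confinement among reporter-negative cells. HIST1H4C was counted at 281 CPM (275 to 288, 7727 UMIs) in the control and at 505 CPM (496 to 514, 11784 UMIs) in the squashed library, a log2 ratio of 0.85 (0.80 to 0.89). H1FX, which encodes the linker histone H1.10, stood at 3.02 (2.41 to 3.74) and 6.47 CPM (5.48 to 7.59), a log2 ratio of 1.10 (0.70 to 1.5) from 83 and 151 UMIs. HIST1H2BK, an H2B gene, stood at 0.946 and 1.93 CPM, with 26 and 45 UMIs and a log2 ratio of 1.02 (0.30 to 1.78), and shares its 3′ end with another gene. These 3 were higher in the squashed library by 1.5-fold or more. H2AFX was the 1 gene at least 1.5-fold lower, at 16.2 CPM (14.7 to 17.8) and 9.73 CPM (8.51 to 11.1), a log2 ratio of -0.73 (-0.97 to -0.50). The background is wide: of 13765 genes with at least 20 UMIs in all, 5.78% were higher by at least that much and 18.1% lower. Over the 9 genes the median log2 ratio was 0.27, against -0.18 over those 13765 genes. The HIST1H4C ratio was 2.30 in cells that held 5000 UMIs and 1500 genes or more and up to 10% mitochondrial UMIs. With G1-, S- and G2/M-called cells weighted equally, the ratios of H2AFX and HIST1H2BK were 0.02 and -0.05. This setting gives the few S-called cells full weight, with 6 and 28 UMIs of H2AFX and 4 and 4 of HIST1H2BK. Within G1-called cells the log2 ratios of these genes were 0.11 and 1.07, and within G2/M-called cells -0.80 and 1.34. TMM scaling put H2AFX at -0.58, within 1.5-fold. In cells thinned to 2000 UMIs H1FX was at 0.11, from 17 and 18 UMIs.

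The other 5 genes were within 1.5-fold in the main sums, and 3 of them passed it under another setting. HIST1H1C, which encodes the linker histone H1.2, was at 79.9 and 110 CPM (log2 ratio 0.46, 0.38 to 0.54), and HIST1H1E, which encodes H1.4, at 12.8 and 10.3 CPM (log2 ratio -0.31, -0.56 to -0.07). The log2 ratio of HIST1H1C was 0.79 under that stricter filter, 0.61 with TMM scaling, 0.69 in cells thinned to 2000 UMIs and 0.86 in cells with at most 10% mitochondrial UMIs. That of HIST1H1E was 0.66 (-0.28 to 1.61) under the stricter filter, from 20 and 22 UMIs. It was -0.84 in thinned cells, from 28 and 15 UMIs, and -0.79 with phases weighted equally. HIST1H2AC, an H2A gene, was at 24.3 and 27.4 CPM and HIST2H2BE, an H2B gene, at 1.75 and 2.10 CPM (log2 ratio 0.27). Under the stricter filter the ratio of HIST2H2BE was 0.71 (-0.41 to 1.86), from 14 and 16 UMIs. H2AFZ was at 940 and 805 CPM (log2 ratio -0.23, -0.25 to -0.20). The Poisson intervals of the 2 levels are apart for HIST1H1C and H2AFZ and overlap for HIST1H1E, HIST1H2AC and HIST2H2BE. The ratio intervals still leave out 0 for HIST1H1E and for HIST1H2AC (0.17, 0.01 to 0.33), while that of HIST2H2BE (-0.34 to 0.87) includes it. Of the 9 genes, HIST1H4C, HIST1H1C, HIST1H2AC and H2AFZ reached 20 CPM, the level used for a gene called measured. Among these 4, HIST1H4C was higher and none was lower, beside 3.48% and 12.4% of all 4307 measured genes.

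Summed by kind, the 6 cluster genes went from 401 to 657 CPM (log2 ratio 0.71, 0.68 to 0.75), and from 120 to 152 CPM without HIST1H4C (0.34, 0.27 to 0.41). The 3 genes outside the clusters summed to 960 and 821 CPM (log2 ratio -0.23, -0.25 to -0.20). Of the other 80 histone genes listed, 38 had at least 20 UMIs in all, and of these 14 were at least 1.5-fold higher and 4 at least 1.5-fold lower, beside 5.78% and 18.1% of the 13765 genes with at least 20 UMIs. All 14 higher genes were cluster genes, but so were 32 of the 38 genes. Of the 4 lower genes, 3 were cluster genes too, the lowest with a log2 ratio of -3.55. The 7 other cluster H4 genes with at least 20 UMIs all had ratios above 0, and 5 of them were at least 1.5-fold higher, among them HIST1H4E at 1.93 and 3.69 CPM and HIST1H4H at 3.31 and 5.27 CPM, both named after their values had been seen. In contrast, the cluster gene HIST1H1D, which encodes H1.3, stood at 33.7 and 29.1 CPM (log2 ratio -0.21, -0.36 to -0.07). Outside the clusters H2AFY, H2AFV and H2AFJ, for macroH2A and further H2A variants, had log2 ratios of 0.17, 0.02 and -0.12.

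**Figure D2:**
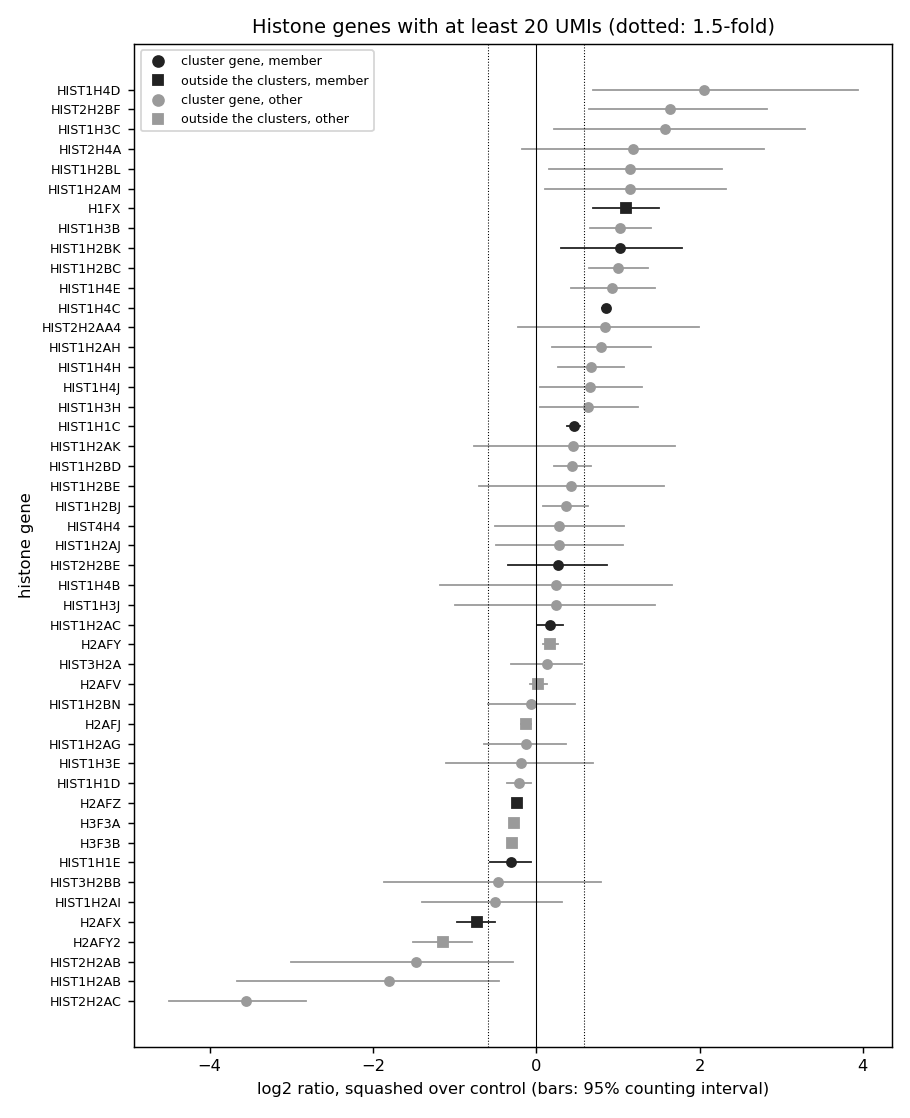
Log2 ratio of squashed over control for the histone genes with at least 20 UMIs in all, sorted, with 95% counting intervals. Black marks are the 9 genes and grey marks other histone genes, circles are cluster genes and squares genes outside the clusters. HIST1H4C has the narrowest interval among the genes past 1.5-fold on the higher side (dotted line).

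Transcript length and base content moved with the ratio. HIST1H4C has a canonical transcript of 405 bases. Over the 40 measured genes with transcripts of over 400 and up to 500 bases the median log2 ratio was 0.42. Of these 40, 11 were at least 1.5-fold higher and 4 had a ratio above that of HIST1H4C. Over the 17 measured genes of over 300 and up to 400 bases, just shorter than HIST1H4C, the median was 1.16. Of these 17, 15 were at least 1.5-fold higher. The median was -0.04 over 235 genes of over 500 and up to 800 bases and -0.15 over 4008 longer genes. The transcripts of H2AFX and H1FX hold 66.8% and 68.6% G and C, and over the 350 measured genes with over 60% the median was -0.27, against -0.13 over the rest. The part of length or base content in the members' ratios was not tested.

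Levels were next compared between called cell cycle phases. Phases were called from published lists of S and G2/M genes, on cells thinned to 2000 UMIs. The control held 618 G1-called, 41 S-called and 1166 G2/M-called cells (33.9%, 2.25% and 63.9% of 1825), and the squashed library 783, 86 and 913 (43.9%, 4.83% and 51.2% of 1782). Of these, 192 and 346 cells lay near the boundary of their call, among them 20 of the 41 control and 46 of the 86 squashed S-called cells, against 80 of 1166 and 87 of 913 G2/M-called cells. Median depth was 15126, 22157 and 12042 UMIs in the control phases and 9143, 17388 and 11073 in the squashed ones.

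HIST1H4C was highest in S-called cells. In the control it stood at 206 CPM in G1-called, 1044 in S-called and 291 in G2/M-called cells, and in the squashed library at 203, 1538 and 623 CPM. S-called cells were thus 5.06-fold above G1-called cells in the control and 7.57-fold in the squashed library. The linker gene HIST1H1E followed the same order in the control, at 9.99, 57.4 and 12.5 CPM, and in the squashed library, at 4.49, 29.1 and 12.6 CPM. HIST1H1D, outside the 9 genes, did so too, at 12.7, 176 and 40 CPM and at 6.06, 147 and 33.0 CPM. Summed over all mitochondrial shares, these 3 genes peaked in cells called to the phase in which histones are made. Among control cells over 10% mitochondrial UMIs, HIST1H4C stood at 1186 CPM (1107 to 1268) in S-called and 1250 (1213 to 1287) in G2/M-called cells. At or under 10% it stood at 93.8 CPM in S-called control cells, from 10 UMIs, and 92.8 in G1-called ones. Squashed S-called cells were above G2/M-called ones in both ranges. They had 1957 against 1571 CPM over 10% and 216 against 150 CPM at or under it.

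H2AFZ and H2AFX had another order. H2AFZ stood at 233, 824 and 1396 CPM in G1-, S- and G2/M-called control cells and at 283, 812 and 1217 CPM in squashed cells, so that G2/M-called cells were 6.0-fold and 4.3-fold above G1-called cells. H2AFX stood at 1.46, 7.32 and 26.0 CPM in the control. In the squashed library it stood at 1.57, 18.9 and 14.9 CPM, where the S and G2/M values have overlapping intervals and the S value rests on 28 UMIs. Both genes were lowest in G1-called cells of each library.

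HIST1H1C, HIST1H2AC and HIST2H2BE were low in G2/M-called cells. HIST1H2AC stood at 40.4, 7.32 and 14.7 CPM in the control and at 43.0, 13.5 and 16.9 CPM in the squashed library, 2.75-fold and 2.54-fold lower in G2/M-called than in G1-called cells. HIST1H1C stood at 117, 142 and 52.7 CPM and at 156, 117 and 72.5 CPM, 2.22-fold and 2.15-fold lower in G2/M-called than in G1-called cells. HIST2H2BE stood at 3.30 CPM in G1-called and 0.862 in G2/M-called control cells, and at 3.87 and 0.829 CPM in squashed cells, with 0 and 2 UMIs in S-called cells. Of these genes, HIST1H2AC and HIST2H2BE, are those with an annotated transcript that runs past the stem-loop to a poly(A) signal.

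In both libraries, 5 of the 9 genes were at least 1.5-fold higher in S-called than in G1-called cells (HIST1H4C, HIST1H1E, HIST1H2BK, H2AFZ and H2AFX), beside 17.8% of genes with at least 20 UMIs and 15.5% of measured genes. HIST1H2AC and HIST2H2BE were at least 1.5-fold lower in S-called cells of both libraries, beside 3.20% and 1.21%. The log2 ratios of HIST2H2BE, -2.46 and -1.21, rest on 0 and 2 S-called UMIs, with intervals that include 0, so it cannot be placed. HIST1H2BK rests on 4 S-called UMIs in each library, and its log2 ratio in the squashed library was 0.65 (-1.50 to 2.13). Likewise 3 were at least 1.5-fold higher in G2/M-called cells (H2AFZ, H2AFX and H1FX) and 3 at least 1.5-fold lower (HIST1H1C, HIST1H2AC and HIST2H2BE), beside 15.9% and 15.2% of genes with at least 20 UMIs (25.7% and 6.13% of measured genes). H1FX stood at 2.33 and 3.63 CPM in G1- and G2/M-called control cells and at 2.82 and 9.53 CPM in squashed cells. Its log2 ratio was 0.62 (-0.06 to 1.39) in the control, from 24 and 59 UMIs, an interval that includes 0. In the squashed library it was 1.74 (1.14 to 2.42), from 27 and 115 UMIs.

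**Figure D3:**
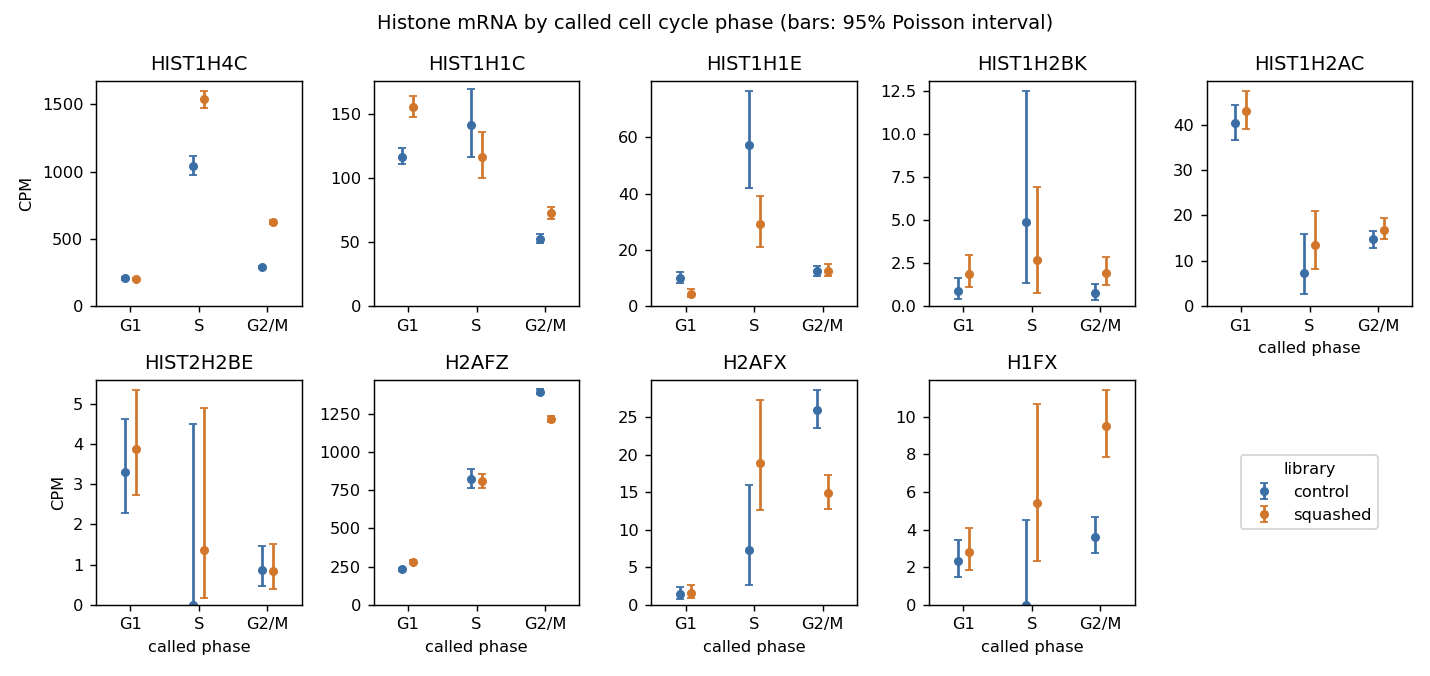
Level of each gene in G1-, S- and G2/M-called cells of both libraries, in CPM on a linear axis from 0, with 95% Poisson intervals. HIST1H4C and HIST1H1E peak in S-called cells, H2AFZ in G2/M-called cells, and HIST1H2AC in G1-called cells. HIST2H2BE is higher in G1- than in G2/M-called cells, but its S level rests on 0 and 2 UMIs.

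Summed over all G1-called cells, HIST1H4C was not higher in the squashed library. The log2 ratio of HIST1H4C was -0.02 (-0.11 to 0.07) in G1-called, 0.56 (0.45 to 0.67) in S-called and 1.10 (1.05 to 1.15) in G2/M-called cells. The medians over measured genes were -0.22, -0.09 and -0.05. Split at 10% mitochondrial UMIs, the G1-called ratio was 0.38 (0.17 to 0.60) at or under it and 0.11 (0.00 to 0.21) above it. Over 10% lay 353 of 618 control and 315 of 783 squashed G1-called cells. Within G1-called cells 5.08% of measured genes were higher by 1.5-fold or more, within S-called cells 7.87% and within G2/M-called cells 4.60%. H1FX had its highest well-counted ratio in G2/M-called cells, at 1.38 (0.93 to 1.87). In G2/M-called cells H2AFX, at 26.0 and 14.9 CPM, had a log2 ratio of -0.80 (-1.06 to -0.55), where 9.40% of measured genes were at least 1.5-fold lower. HIST1H1E was lower in G1-called and S-called squashed cells, with log2 ratios of -1.14 (-1.70 to -0.63) and -0.98 (-1.61 to -0.35). Beside these stood 25.2% and 16.8% of measured genes at least 1.5-fold lower. In G2/M-called cells HIST1H1E was even, at 0.01 (-0.30 to 0.32). H1FX, H2AFX and HIST1H1E lay below the measured level, so these shares are of other, more highly counted genes.

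Per cell, most UMIs of HIST1H4C lay in a small share of the cells. Among the 1190 control and 906 squashed cells thinned to 10000 UMIs, 38.2% (35.4 to 41.0) and 52.5% (49.2 to 55.8) had a HIST1H4C UMI, against 32.5% and 44.3% of all kept cells without thinning. The top 10% of cells held 72.8% and 73.6% of its UMIs, and the highest cell had 52 and 115. In G1-called cells the means were 2.04 and 2.05 UMIs, with a UMI in 67.3% and 58.9% of cells. In G2/M-called cells a UMI was found in 18.2% (15.5 to 21.3) of control and 45.3% (40.9 to 49.8) of squashed cells, and the top 10% of cells held 95.3% and 83.0% of the UMIs. With 1 cell line in both libraries, no cell type that should lack the gene was at hand to give a background share, and the share from free RNA was not measured.

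Cells with at least 10 HIST1H4C UMIs of 10000, a limit chosen after the values were seen, were 51 of the control cells (4.29%, 3.21 to 5.60) and 76 of the squashed cells (8.39%, 6.67 to 10.4), and held 56.1% and 70.4% of the gene's UMIs. Near this limit lay 13 and 29 cells with 8 or 9 UMIs and 6 and 12 with 10 to 12. They made up 0.451%, 31.0% and 5.57% of G1-, S- and G2/M-called control cells and 1.43%, 41.8% and 9.58% of squashed cells. Within G2/M-called control cells, those with at least 10 UMIs had a mean of 4.42 HIST1H1D and 1.68 HIST1H1E UMIs, against 0.00681 and 0.00511 in cells with no HIST1H4C UMI. Their median H2AFZ was 9 against 15 UMIs, and their median S-list sum 24.5 against 16. In squashed G2/M-called cells the S-list sums were 23 and 16, the mean HIST1H1D 2.60 and 0.0255, and the median H2AFZ only 11 and 12. Median mitochondrial shares were 15% against 4.88% in the control and 12.1% against 5.82% in the squashed library. In both libraries, then, G2/M-called cells rich in H4 mRNA also held more H1.3 mRNA.

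**Figure D4:**
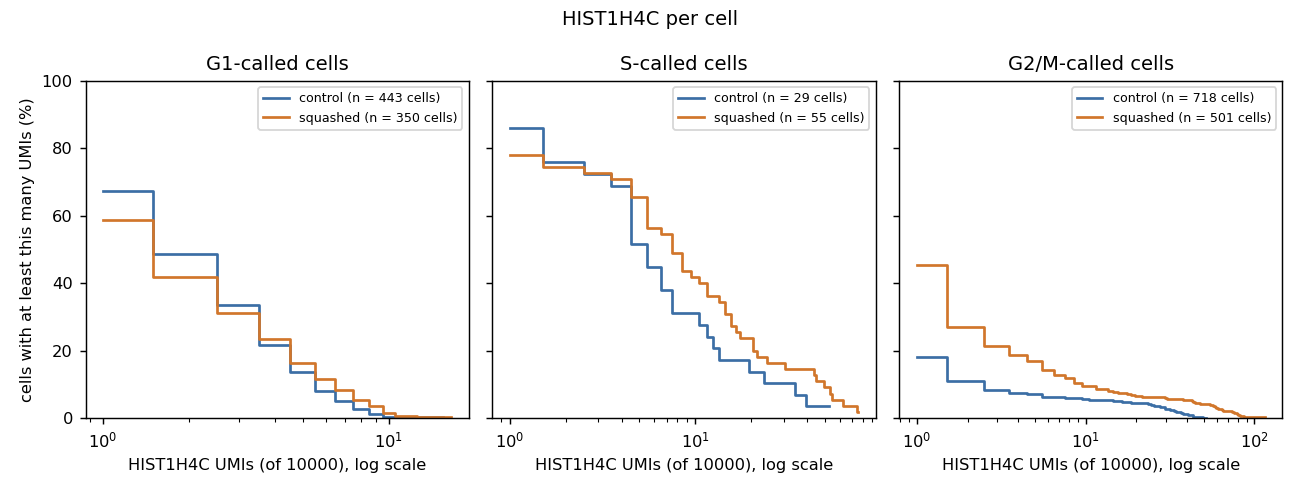
Percent of cells (y axis) with at least a given number of HIST1H4C UMIs of 10000 (x axis, log scale) in G1-, S- and G2/M-called cells of each library. The libraries lie close together in G1-called cells, and in G2/M-called cells 18.2% of control and 45.3% of squashed cells have at least 1 UMI.

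The level of HIST1H4C also moved with a cell's mitochondrial share. In bins chosen after the data were seen (up to 5%, 5 to 10%, 10 to 15%, 15 to 20% and over 20% mitochondrial UMIs) it stood at 30.7, 44.2, 511, 782 and 170 CPM in the control and 89.8, 177, 1009, 745 and 160 CPM in the squashed library. Cells with over 10% held 92.4% and 84.2% of its UMIs, but 42.0% and 44.4% of all UMIs. The corresponding shares were 93.2% and 88.0% for HIST1H1E and 20.2% and 34.9% for H2AFZ. Cells of over 10 to 15% were also deep, with medians of 19057 and 16917 UMIs, above those of the bins up to 10%. Barcodes over 20%, which were not kept, had medians of 6870 and 4146 UMIs.

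Among G2/M-called cells the 2 ranges were far apart. Control cells with at most 10% mitochondrial UMIs (1005 cells) had 21.1 CPM of HIST1H4C and those above it (161 cells) 1250 CPM, a 59.2-fold difference. In the squashed library the values were 150 CPM (700 cells) and 1571 CPM (213 cells), a 10.5-fold difference. Taking the lower of both libraries' ratios, 2 of the 4307 measured genes exceeded HIST1H4C. HIST1H1E stood at 0.947 and 53.6 CPM in these control cells and at 1.74 and 34.4 CPM in the squashed ones, and HIST1H1D at 1.97 and 175 CPM and at 6.95 and 85.2 CPM. HIST1H1C was 4.93-fold and 2.27-fold higher above 10%. At least 1.5-fold higher in both libraries were 10.7% of measured genes and 23.9% of genes with at least 20 UMIs. H2AFX hardly differed, at 25.9 and 26.4 CPM in the control and 13.9 and 16.9 in the squashed library, and H2AFZ was lower above 10%, at 909 against 1533 CPM and at 1077 against 1286 CPM.

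The library ratio depended on this share. In G2/M-called cells the log2 ratio of HIST1H4C was 2.83 (2.64 to 3.03) at or under 10% and 0.33 (0.27 to 0.39) above it. Over all phases it was 1.96 (1.82 to 2.09), from 36.9 and 143 CPM, at or under 10%, and 0.63 (0.59 to 0.68), from 619 and 959 CPM, above it. In both ranges, then, the squashed library was higher. H2AFZ had opposite signs, with a log2 ratio of -0.46 (-0.49 to -0.43) at or under 10% and 0.48 (0.43 to 0.54) above it, and HIST1H1E did as well, at 0.56 (-0.26 to 1.41) and -0.48 (-0.73 to -0.22). H2AFX stood at -1.07 (-1.38 to -0.78) and -0.02 (-0.43 to 0.38). H1FX had 0.90 and 1.37. The part of the mitochondrial share in these differences was not tested.

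**Figure D5:**
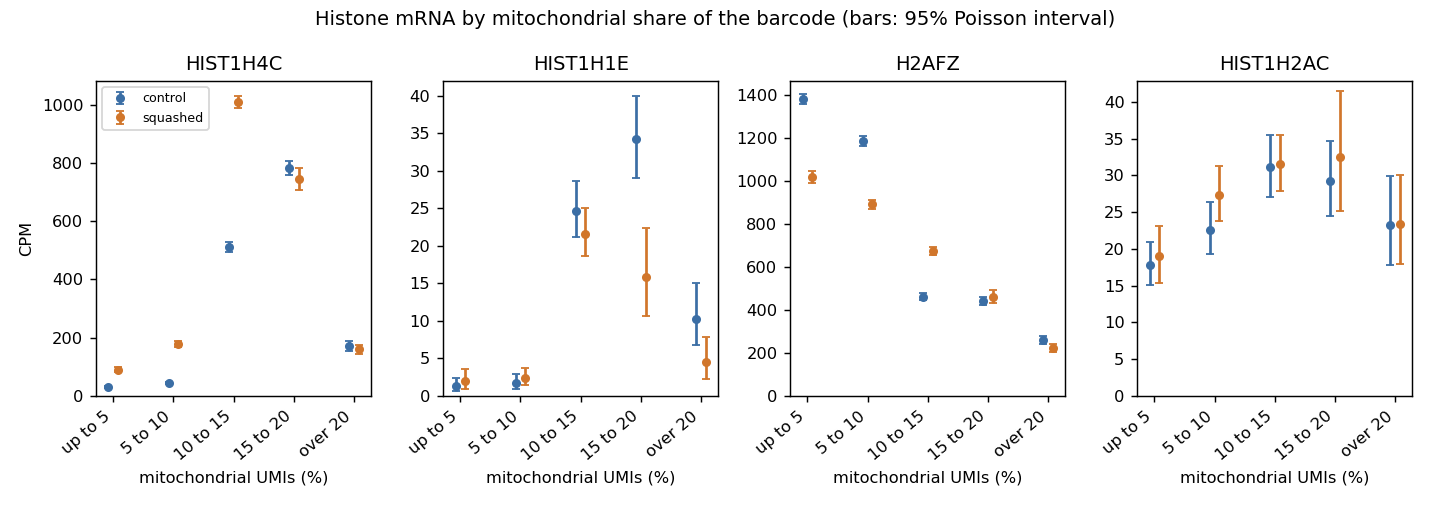
Level of HIST1H4C, HIST1H1E, H2AFZ and HIST1H2AC in CPM (linear axis from 0) by the mitochondrial share of the barcode, in both libraries, with 95% Poisson intervals. HIST1H4C and HIST1H1E are low up to 10% and high from 10 to 20%, whereas H2AFZ is highest up to 5%.

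Clusters were made without any histone gene and are given by number and leading genes. Cluster 0 (CENPF, KIF14 and CENPE, 654 control and 505 squashed cells) and cluster 2 (MTRNR2L8, MTRNR2L12 and PTTG1, 452 and 321 cells) were mostly G2/M-called. Cluster 1 (SNHG32, SNHG29 and SH3BGRL3, 274 and 631 cells) and cluster 3 (NEAT1, KCNQ1OT1 and FOS, 396 and 291 cells) were mostly G1-called, and cluster 4 (NMI, NUPR1 and AMBP) held 49 and 34 cells with median mitochondrial shares of 0.162% and 0.10%. HIST1H4C in the control was at 361, 13.3, 9.25, 391 and 709 CPM in clusters 0 to 4, and in the squashed library at 803, 63.4, 43.3, 648 and 1115 CPM. It was higher in the squashed library in 5 of 5 clusters, with log2 ratios from 0.65 in cluster 4 to 2.24 in cluster 1. Clusters 0 and 2 thus differed widely in HIST1H4C although both were called G2/M, and their median mitochondrial shares were 5.44% and 3.25% in the control. Cluster 4 kept high HIST1H4C at a mitochondrial share near 0.

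H2AFZ stood at 1390, 444, 1648, 271 and 520 CPM in clusters 0 to 4 of the control and at 1210, 388, 1396, 398 and 446 CPM in the squashed library. It was higher in the squashed library in cluster 3 (log2 ratio 0.55, 0.47 to 0.64) and had ratios below 0 in the other 4. In cluster 1, HIST1H1E stood at 0.617 and 0.560 CPM, H2AFX at 3.08 and 1.68 CPM and H1FX at 0.617 and 1.68 CPM. HIST1H1C stood at 130 and 163 CPM there, HIST1H2AC at 29.9 and 34.5 CPM and H3F3A at 1273 and 965 CPM, while H3F3B stood at 98.4 and 76.8 CPM. NEAT1, a nuclear long RNA, stood at 14.2 CPM in control cluster 1.

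Across the cells thinned to 10000 UMIs, likeness was taken as the lower of both libraries' correlations of log counts, over 1190 control and 906 squashed cells, among genes of at least 50 CPM. Cells share library, depth and phase, so these values are a description. HIST1H4C was most like ZFP36L1, an mRNA-decay factor (r of 0.56 in the control and 0.50 in the squashed library), then the nuclear RNAs NEAT1 (0.50 and 0.46) and MALAT1 (0.49 and 0.45). The gene most like HIST1H1E was HIST1H4C (0.56 and 0.52), and that most like HIST1H2AC was HIST1H1C (0.21 and 0.21). H2AFZ was most like BIRC5 (0.81 and 0.75), PTTG1 (0.82 and 0.72) and HMGB1 (0.71 and 0.71), the first a mitotic survivin gene and the second the securin gene. H2AFX was most like TOP2A, MKI67 and TUBB4B and HIST1H1C most like CDKN1A, PAPPA and TCEAL4, all with a lower r under 0.25. For HIST1H2BK, HIST2H2BE and H1FX no gene exceeded 0.13. HIST1H4C and H2AFZ, the most counted pair, had an r of -0.34 in the control and 0.01 in the squashed library.

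Promoters are shown for 2 pairs of genes of one kind, to set their letters side by side: the linker genes HIST1H1E and HIST1H1C, and the H2A variant genes H2AFZ and H2AFX. The windows run from 250 bases before to 50 after the start (RefSeq, GRCh38.p14), and 8 of the 9 genes had an entry. Letters searched on both strands were CCAAT (bound by NF-Y), TATAAA (the TATA box), ATTTGCAT (the octamer bound by OCT1, common in H2B promoters) and AAACACA (the H1 box of linker histone promoters), chosen with the sequences in view. Capitals mark matches, so ATTGG and TTTATA are the reverse strand of the first and second, and matches of TATAAA may overlap each other. HIST1H1E lies at chr6:26156079-26156378 on the plus strand, and HIST1H1C at chr6:26056421-26056720, H2AFZ at chr4:99950226-99950525 and H2AFX at chr11:119095416-119095715 on the minus strand.
HIST1H1E: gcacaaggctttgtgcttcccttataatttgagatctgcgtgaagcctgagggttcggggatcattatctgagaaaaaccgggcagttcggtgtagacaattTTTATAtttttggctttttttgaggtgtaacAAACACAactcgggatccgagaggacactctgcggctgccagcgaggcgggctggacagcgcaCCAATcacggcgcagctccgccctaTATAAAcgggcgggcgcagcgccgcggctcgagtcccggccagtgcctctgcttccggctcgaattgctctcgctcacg
HIST1H1C: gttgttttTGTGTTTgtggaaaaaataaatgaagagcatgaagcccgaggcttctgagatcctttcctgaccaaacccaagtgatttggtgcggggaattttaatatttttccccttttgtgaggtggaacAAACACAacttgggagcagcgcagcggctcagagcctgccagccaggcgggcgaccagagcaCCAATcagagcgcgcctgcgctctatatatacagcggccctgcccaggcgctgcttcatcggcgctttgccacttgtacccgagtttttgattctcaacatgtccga
H2AFZ: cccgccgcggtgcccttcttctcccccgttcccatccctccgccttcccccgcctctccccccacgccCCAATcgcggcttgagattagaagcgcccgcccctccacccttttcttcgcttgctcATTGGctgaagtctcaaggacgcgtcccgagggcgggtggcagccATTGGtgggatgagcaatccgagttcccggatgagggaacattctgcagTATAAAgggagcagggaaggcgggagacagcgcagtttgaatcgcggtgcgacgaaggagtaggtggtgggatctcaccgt
H2AFX: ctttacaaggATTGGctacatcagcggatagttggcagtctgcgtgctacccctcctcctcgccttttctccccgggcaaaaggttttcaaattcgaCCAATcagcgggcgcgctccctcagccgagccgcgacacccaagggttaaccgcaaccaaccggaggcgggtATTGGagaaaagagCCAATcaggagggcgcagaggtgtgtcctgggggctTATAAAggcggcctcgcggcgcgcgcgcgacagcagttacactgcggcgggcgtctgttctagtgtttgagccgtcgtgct

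HIST1H1E and HIST1H1C held AAACACA, 1 and 2 times, and no other of the 8 promoters did, against 5.64% of 35116 promoters of the same length. CCAAT was found in 7 of the 8 (34.6% of all promoters) and TATAAA in 7 of the 8 (11.5%). ATTTGCAT was found in HIST1H2BK, HIST1H2AC and HIST2H2BE (1.77% of all). H2AFZ held CCAAT 3 times and H2AFX 4 times, and each held TATAAA 1 time. These are matches of letters, and binding was not measured.

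Genes that act on histone genes, mRNAs and proteins were taken from 3 lists, whose counts stand beside the 3.48% higher and 12.4% lower of all measured genes. Of 15 listed genes for histone gene transcription and mRNA end formation or decay, 5 were measured and none of them was 1.5-fold higher or lower, with a median log2 ratio of -0.24. Their log2 ratios were 0.34 for CPSF2, -0.29 for LSM10, -0.28 for SYMPK and -0.24 for LSM1. SLBP, the stem-loop binding protein, stood at 10.2 and 10.5 CPM, below the measured level, and was named after its value had been seen. Of 26 listed chaperones and histone carriers, 17 were measured and none was 1.5-fold higher or lower, with a median of -0.01, among them HJURP, the CENP-A chaperone, at 81.6 and 106 CPM. The lower unmeasured chaperones were ASF1B, which carries H3 and H4, at 9.21 and 4.2 CPM, and TONSL at 1.67 and 0.986 CPM, both named after their values had been seen. Of 8 genes acting on H2A.X at DNA breaks, 3 were measured, with log2 ratios of -0.53 for the ubiquitin ligase RNF8, -0.41 for the kinase PRKDC and 0.20 for BAZ1B. The unmeasured RNF168, also named after its value had been seen, stood at 10.3 and 5.83 CPM. The proliferation genes MKI67 and PCNA stood at 123 and 118 CPM and at 205 and 156 CPM, and NEAT1 at 1612 and 927 CPM.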

How the data were processed

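RNA of single A549 cells was counted in 1 control and 1 squashed library made with the Chromium 3.1 kit. The deposited matrices hold whole-number UMI counts per gene and barcode, without normalization, per the file headers. Counting used Cell Ranger on GRCh38, given as 4.0.0 per the file headers but as 5.0.1 in the series' design text. The submitters' processing notes also name R 4.3.2. Groups follow the treatment label, and 1 batch is recorded for both.

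Barcodes with fewer than 1000 UMIs, fewer than 500 genes or over 20% mitochondrial UMIs were left out. Counts were summed over kept cells (27482392 control and 23328323 squashed UMIs) and scaled to CPM, and ratios used a prior of 0.5 count, checked on simulated data. Scanpy 1.11.5 called phases from gene lists without histone genes on cells thinned to 2000 UMIs, and Leiden clusters (leidenalg 0.10.2, resolution 0.5, 2000 variable genes, 30 components, 15 neighbours) with genes scaled within each library and histone genes left out. Scrublet marked 16 and 15 doublets, which were kept. TMM came from edgeR 4.0.16. Other tools were scipy 1.17.1, pandas 2.3.3, numpy 2.4.6 and matplotlib 3.10.9 in Python 3.11.15. Of the genes, 36366 of 36601 matched GENCODE 44 by identifier.

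A gene was called measured at 20 CPM or more in either library and higher or lower at 1.5-fold. Named were the 9 genes, other histone genes at 20 CPM or more, up to 4 measured genes of each pathway list with the largest absolute ratio, the 3 genes most like each member, the 3 leading genes of each cluster, and NEAT1, MKI67 and PCNA. A further gene is not reported here. Others are marked as named after their values had been seen. The members and lists were chosen with earlier results of these data known. The alternatives were other cell filters, scalings, thinning depths, weights of phases, doublet removal and a fold of 1.25.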

Additional observations from a re-analysis of the deposited data

Results flagged for a closer look

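Within called phases, 2 of the 9 genes had library ratios of opposite sign whose counting intervals both left out 0. H2AFZ had a log2 ratio of squashed over control of 0.28 (0.20 to 0.36) in G1-called cells and -0.20 (-0.23 to -0.17) in G2/M-called cells. H2AFX had 1.28 (0.07 to 2.93) in S-called cells, from 6 and 28 UMIs, and -0.80 (-1.06 to -0.55) in G2/M-called cells, from 422 and 180 UMIs. With 1 library per group, these differences between phases were not tested.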

How the results depend on the processing

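With 1 library per group no library could be left out, and intervals leave out variation between cultures. No paired analysis was possible with 1 library in each group. Of 35 recomputed counts of members, 32 stayed within 1.5 times the reported count and 3 did not: 6 genes were higher in the squashed library under the stricter cell filter (3 in the main count), and 0 and 2 were lower with TMM scaling and with cells thinned to 2000 UMIs (1 in the main count). Single ratios changed more often. Of 81 recomputed library ratios, 30 left the counting interval of the main value, beside the 2 of other sign named next. So did 30 of 144 phase ratios and 20 of 108 library ratios within phases. The library ratio of HIST1H4C (0.85) ran from 0.62 with phases weighted equally to 2.30 under the stricter filter. Library ratios had the other sign with phases weighted equally for HIST1H2BK (-0.05) and H2AFX (0.02). Both genes had few UMIs in S-called cells, 4 and 4 for HIST1H2BK and 6 and 28 for H2AFX. The mean over thinned cells turned the S over G1 log2 ratio of HIST2H2BE (0.45 control, 1.07 squashed) and of H1FX in the control (0.74), the G2/M over G1 ratio of HIST1H1E in the squashed library (-0.22), and the library ratios of H1FX in S-called cells (-1.07) and HIST1H2BK in G2/M-called cells (-0.38). It also gave the other sign to ratios that had been within 1.5-fold, among them G2/M over G1 in the control for HIST1H4C (-0.10) and HIST1H1E (-0.35), S over G1 in the control for HIST1H1C (-0.47; -0.35 with cells thinned to 5000 UMIs and -0.38 without thinning) and the library ratio of HIST1H1C in S-called cells (0.64). The cause was not tested. Filters of at most 10% mitochondrial UMIs and of 5000 UMIs with 1500 genes, and the alternatives within phases, were added after the data had been seen.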

Other observations

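HIST2H2AC, an H2A cluster gene outside the 9 genes and named after its values had been seen, had 200 UMIs in the control and 14 in the squashed library, or 7.28 and 0.600 CPM, a log2 ratio of -3.55 (-4.50 to -2.82). In cluster 0 it stood at 9.26 CPM in the control and 0.821 in the squashed library. H2AFY2, a macroH2A gene also named after its values had been seen, stood at 8.51 and 3.86 CPM, a log2 ratio of -1.14 (-1.51 to -0.79). Of the 80 other histone genes listed, 21 had 0 UMIs in both libraries and 42 had under 20 in all.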
